A study of Homo sapiens with 6 samples.

Results

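The transcription factors that are commonly used to describe mesenchymal or hepatic stellate cell (HSC) identity, namely BNC2, TCF21, TWIST1, TWIST2, SNAI1, SNAI2, ZEB1, ZEB2, PRRX1 and PPARG, were examined in LX-2 cells after silencing of OGT, which encodes the O-GlcNAc transferase of nuclear and cytosolic proteins. The 10 genes were taken by their symbol from 16907 genes, and 9 of them had enough counts to be tested. LX-2 is an established line of human HSCs, so all values come from 1 cell line. Cells were transfected with 20 nM of a control siRNA (siControl) or of an siRNA against OGT (siOGT), and RNA was collected 72 h later. There were 3 libraries per group, in 3 pairs that share a replicate number. According to the study's reagent list, siControl was a single commercial negative control and siOGT a pool of siRNAs from another supplier, so loss of OGT cannot be told apart from other effects of that pool.

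Most of these factors are known from the epithelial-to-mesenchymal transition. SNAI1 and SNAI2 are zinc finger repressors that bind E-boxes in the promoters of epithelial genes such as CDH1, ZEB1 and ZEB2 are larger zinc finger and homeodomain repressors of the same genes, and TWIST1 and TWIST2 are basic helix-loop-helix factors that bind E-boxes as dimers with E proteins. BNC2 (basonuclin 2) is a zinc finger factor of myofibroblasts, TCF21 a basic helix-loop-helix factor of mesenchymal progenitors and quiescent HSCs, and PRRX1 a homeobox factor of mesenchyme. PPARG is the lipid-activated nuclear receptor of adipocytes, and its loss accompanies the activation of HSCs into myofibroblasts.

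SNAI1 and SNAI2, ZEB1 and ZEB2, and TWIST1 and TWIST2 are paralogs, and their coding DNA was compared because reads that match both copies are divided between them by the counting program RSEM. The most similar stretch of 90 bases within a coding exon is shown for ZEB1 with ZEB2 and for TWIST1 with TWIST2, with the bases that differ between the copies in capitals (GENCODE 44, hg38, each read in the direction of its gene). The ZEB stretches lie in the last coding exon, at chr10:31526761-31526850 (plus strand) and chr2:144389850-144389939 (minus strand), within the zinc fingers near the end of the protein. The TWIST stretches lie at chr7:19116836-19116925 (minus strand) and chr2:238848486-238848575 (plus strand), within the helix-loop-helix domain.
ZEB1: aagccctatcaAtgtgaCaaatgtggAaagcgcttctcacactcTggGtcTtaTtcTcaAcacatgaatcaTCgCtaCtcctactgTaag
ZEB2: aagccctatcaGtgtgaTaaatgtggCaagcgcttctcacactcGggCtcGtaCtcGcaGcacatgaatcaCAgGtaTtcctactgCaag
TWIST1: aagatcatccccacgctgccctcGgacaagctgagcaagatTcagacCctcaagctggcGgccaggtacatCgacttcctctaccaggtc
TWIST2: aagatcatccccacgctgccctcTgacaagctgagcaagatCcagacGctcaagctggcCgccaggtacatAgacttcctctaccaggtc
In these stretches TWIST1 and TWIST2 were identical at 85 of 90 bases (94.4%) and ZEB1 and ZEB2 at 76 (84.4%). The longest run of identical bases in the whole coding sequence was 23 for the TWIST genes, 20 for the ZEB genes and 11 for SNAI1 with SNAI2. The deposited counts of all 6 genes were whole numbers in all 6 libraries, as were those of BNC2, TCF21 and PRRX1. PPARG held fractions of reads in siControl replicates 1 and 3 and was whole in the other 4 libraries.

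OGT itself fell by 2.18 on the log2 scale (SE 0.073, edgeR adjusted p = 2.712e-12), being at 121 to 177 CPM (counts scaled to library size) in siControl and at 27.0 to 39.9 CPM in siOGT. Libraries held between 25996770 and 27966801 expected counts. Of the HSC and myofibroblast markers, 11 were measured and their summed level was 3147 to 4535 CPM in siControl and 2342 to 3610 CPM in siOGT, mostly from collagen genes, while DES, LRAT and LUM were under 1 CPM. Summed markers were 6.40 to 9.24 and 8.18 to 12.6 CPM for hepatocytes (5 genes), 88.6 to 128 and 91.4 to 129 CPM for cholangiocytes (5), and 3.18 to 7.86 and 3.00 to 5.72 CPM for endothelial cells (3), in siControl and siOGT respectively. The defining genes ALB and HNF4A, KRT19 and EPCAM were under 1 CPM. Most of the cholangiocyte sum was SOX9, at 83.1 to 120 CPM in siControl and 86.7 to 122 CPM in siOGT. SOX9 is also among the mesenchymal or stellate transcription factors listed below. The 4 macrophage and leukocyte markers summed to 132 to 163 CPM in siControl and 177 to 208 CPM in siOGT, a difference carried by CD68, a lysosomal protein, while PTPRC, which defines leukocytes, was under 1 CPM.

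To compare levels between genes, CPM were divided by the length of the MANE Select transcript. TWIST2 had the highest level, 46.8 ± 3.48 CPM per kilobase in siControl (SD, n = 3). It was followed by SNAI2 (23.2 ± 5.75), ZEB2 (14.4 ± 0.980), SNAI1 (10.4 ± 0.132), TWIST1 (8.75 ± 2.16), ZEB1 (4.58 ± 0.565), BNC2 (4.03 ± 0.250), PPARG (1.41 ± 0.749) and TCF21 (0.378 ± 0.0849) on the same scale. The siControl libraries of neighbours in this order overlapped for SNAI1 with TWIST1 and for ZEB1 with BNC2, and did not overlap for the others. With the length of all merged exons in place of the MANE transcript, ZEB2, which has 26151 merged bases against 9265, moved from rank 3 to rank 5, and BNC2 and ZEB1 changed places. TCF21, at a mean of 0.44 CPM over all libraries, and PRRX1 were under 1 CPM.

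**Figure D1:**
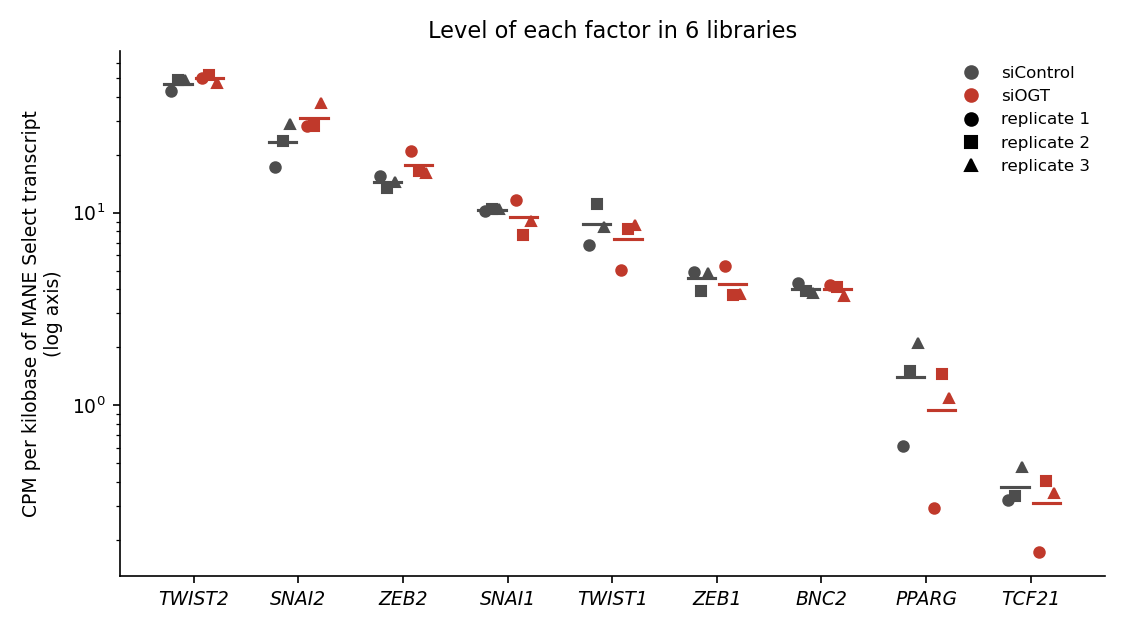
Level of 9 factors in each of the 6 libraries, in CPM per kilobase of the MANE Select transcript on a log axis, with siControl in grey, siOGT in red, a symbol for each replicate number and a bar at the group mean. The means run from 46.8 (TWIST2) to 0.378 (TCF21) in siControl. PRRX1 is not drawn, since 5 of its 6 libraries were at 0.

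Of the 9 tested factors, SNAI2 and ZEB2 rose in siOGT, by 1.36-fold and 1.23-fold, and none fell. This share, 2 of 9 or 22.2%, stands beside 25.4% of all 14853 genes called in either direction by the same test (edgeR quasi-likelihood F test with the replicate as a block, adjusted p at most 0.05), 12.7% called higher and 12.7% called lower. ZEB2 was also the only factor whose 3 siOGT libraries did not overlap the 3 siControl libraries, which occurred for 23.9% of all genes. These are bulk libraries, in which more cells that express a gene and more RNA per cell cannot be told apart. The median log2 fold change of the 9 factors was -0.11, and that of all genes 0.007.

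SNAI2 (Slug; chr8:48917598-48921740, minus strand) was measured at 37.6, 51.1 and 62.7 CPM in siControl replicates 1, 2 and 3 and at 61.7, 61.2 and 80.8 CPM in siOGT. The siOGT library was the higher in each pair, by 0.71, 0.26 and 0.37 on the log2 scale, but siControl replicate 3 exceeded siOGT replicates 1 and 2, so that the groups overlapped. SNAI2 rose by 0.44 on the log2 scale (SE 0.081, 95% confidence interval 0.27 to 0.61, edgeR adjusted p = 7.016e-04). The call needs the pairing: without the replicate block the edgeR adjusted p was 0.250. Counting error was small, between 2.15% and 3.15% of the value in a library.

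SNAI1 (Snail; chr20:49982980-49988886, plus strand) was at 17.4, 17.8 and 17.8 CPM in siControl, close together, and at 20.0, 13.0 and 15.4 CPM in siOGT. The first siOGT library lay above all siControl libraries and the others below them. With a log2 fold change of -0.15 (SE 0.11, interval -0.37 to 0.08), it was not called (edgeR adjusted p = 0.358). Single pairs moved this estimate, to -0.33 without replicate 1 (edgeR adjusted p = 0.083) and to -0.0052 without replicate 2 (0.984). The ratio of SNAI2 to SNAI1 per kilobase was higher in siOGT in all 3 pairs: 1.69 against 2.42, 2.25 against 3.67 and 2.76 against 4.11. With merged exon lengths these ratios were 1.12 against 1.61, 1.49 against 2.44 and 1.83 against 2.73. On the log2 scale the ratio of SNAI1 to SNAI2 differed by -0.52, -0.71 and -0.57, with a mean of -0.60 ± 0.097 (SD, n = 3 pairs).

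ZEB2 (chr2:144364364-144521057, minus strand) was measured at 143, 125 and 133 CPM in siControl and 193, 153 and 148 CPM in siOGT. Every siOGT library lay above every siControl library, and the pairs differed by 0.43, 0.29 and 0.16 on the log2 scale. ZEB2 rose by 0.30 on the log2 scale (SE 0.068, interval 0.15 to 0.44, edgeR adjusted p = 0.00425). The first pair carried much of it: without replicate 1 the estimate was 0.22 and the edgeR adjusted p 0.137. Without the replicate block the adjusted p was 0.215. An antisense gene, ZEB2-AS1, covers 1299 bases of the merged exons of ZEB2 and 181 of the 9265 bases of its MANE transcript, and the counting used strand.

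ZEB1 (chr10:31318495-31529814, plus strand) was at 29.3, 23.3 and 29.0 CPM in siControl and 31.5, 22.1 and 22.4 CPM in siOGT. In siOGT the first pair was slightly higher, the second slightly lower and the last lower, and the groups overlapped. Its log2 fold change was -0.11 (SE 0.09, interval -0.30 to 0.08, edgeR adjusted p = 0.394), and its sign turned without replicate 3. The ratio of ZEB2 to ZEB1 per kilobase went from 3.13 to 3.92, from 3.43 to 4.44 and from 2.94 to 4.25 in the 3 pairs. With merged exon lengths the same ratios were lower, 1.62 to 2.02, 1.77 to 2.29 and 1.52 to 2.195, so the size of the ratio depends on the length used. The log2 ratio of ZEB1 to ZEB2 differed by -0.32, -0.37 and -0.53, with a mean of -0.41 ± 0.108. With 3 pairs, no difference can pass a two-sided exact sign-flip test, so these ratios are given as a description.

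**Figure D2:**
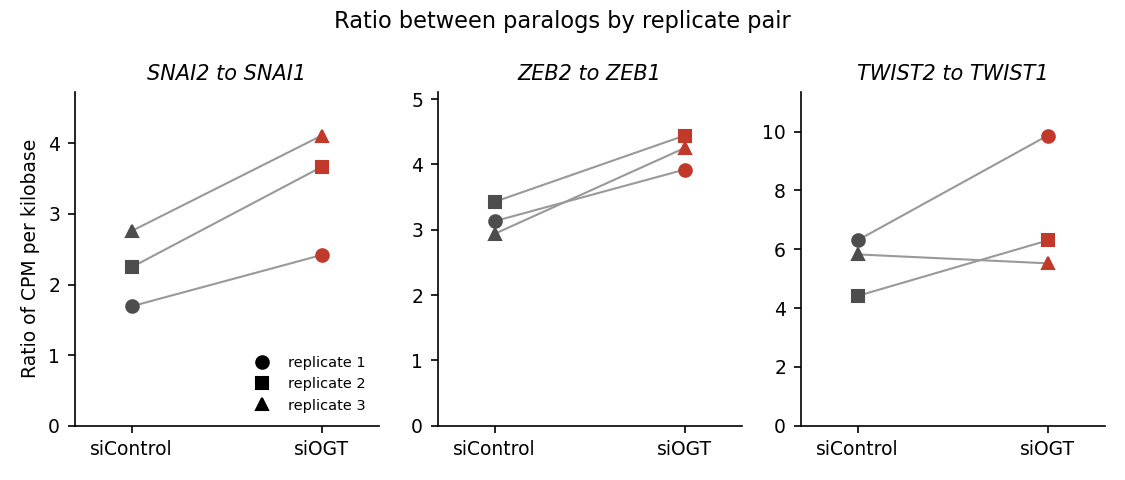
Ratio between paralogs in CPM per kilobase for each replicate pair, with siControl in grey and siOGT in red and a line joining the libraries of a pair. The ratio was higher in siOGT in 3 of 3 pairs for SNAI2 to SNAI1 and for ZEB2 to ZEB1, and in 2 of 3 pairs for TWIST2 to TWIST1.

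TWIST2 (chr2:238848032-238910534, plus strand) was at 57.5, 65.5 and 65.6 CPM in siControl and 67.0, 69.9 and 63.6 CPM in siOGT. It was not called, with a log2 fold change of 0.09 (SE 0.07, interval -0.06 to 0.24, edgeR adjusted p = 0.384). TWIST1 (chr7:19020991-19117636, minus strand) was at 11.1, 18.0 and 13.7 CPM in siControl and 8.26, 13.5 and 14.0 CPM in siOGT, lower in pairs 1 and 2 and alike in pair 3. The groups overlapped for both genes. The log2 fold change of TWIST1 was -0.26 (SE 0.109, interval -0.49 to -0.04), with an edgeR p of 0.0259 before adjustment and 0.0847 after it. Without replicate 3 it was -0.43 and the adjusted p 0.0144, whereas without replicates 1 and 2 in turn it was -0.20 and -0.18 and the adjusted p 0.364 and 0.355. The log2 ratio of TWIST1 to TWIST2 differed by -0.64, -0.51 and 0.08 in the 3 pairs, with a mean of -0.36 ± 0.383.

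BNC2 (chr9:16409503-16870843, minus strand) had the least change of the 9 tested factors. It was measured at 55.3, 50.4 and 49.3 CPM in siControl and 54.1, 52.5 and 47.5 CPM in siOGT. The ranges of the groups overlapped almost fully. The log2 fold change of -0.01 (SE 0.068) was not called (edgeR adjusted p = 0.95), and its 95% confidence interval, -0.15 to 0.14, corresponds to 0.901-fold to 1.10-fold. A change of the size seen for SNAI2 or ZEB2 lies outside this interval. Its paralog BNC1 (basonuclin 1), a gene of squamous epithelia and germ cells, was at 28.6 CPM in siControl and 32.8 CPM in siOGT on average. BNC1 was higher in siOGT in 3 of 3 pairs, and its groups did not overlap. Its log2 fold change was 0.20 (interval 0.02 to 0.37), with an edgeR p of 0.0289 before adjustment and 0.0915 after it, so BNC1 was not called.

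TCF21 (chr6:133889113-133895553, plus strand) had 11, 11 and 17 counts in siControl and 6, 14 and 12 counts in siOGT. At this depth counting error alone was 24.3% to 40.8% of the value, and the fitted log2 difference of -0.31 (SE 0.53) had an interval from -1.43 to 0.81 (edgeR adjusted p = 0.719), so that a difference within these limits was not detectable. The antisense gene TARID shares 863 of the 1280 bases of its MANE transcript. PRRX1 (chr1:170662728-170739421, plus strand) had 2 counts in the first siOGT library and 0 in the other 5 libraries. A count of 0 allows up to 0.107 to 0.118 CPM in a library (3 counts, for counting error only), and PRRX1 was not tested. Both genes were thus at or near the limit of detection in these LX-2 libraries.

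PPARG (chr3:12287368-12434356, plus strand) was low and variable. It had 1.08, 2.67 and 3.73 CPM in siControl and 0.518, 2.56 and 1.94 CPM in siOGT. The siOGT library was the lower in all 3 pairs, by 0.97, 0.06 and 0.92 on the log2 scale, yet the replicates of a group spread further than the groups differed. The estimate was -0.62 on the log2 scale (SE 0.26, interval -1.17 to -0.06), with an edgeR p of 0.031 before adjustment and 0.0963 after it. Without replicate 2 the log2 fold change was -0.98 and the adjusted p 0.0285, whereas without replicates 1 and 3 in turn it was -0.50 and -0.40 and the adjusted p 0.26 and 0.422.

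**Figure D3:**
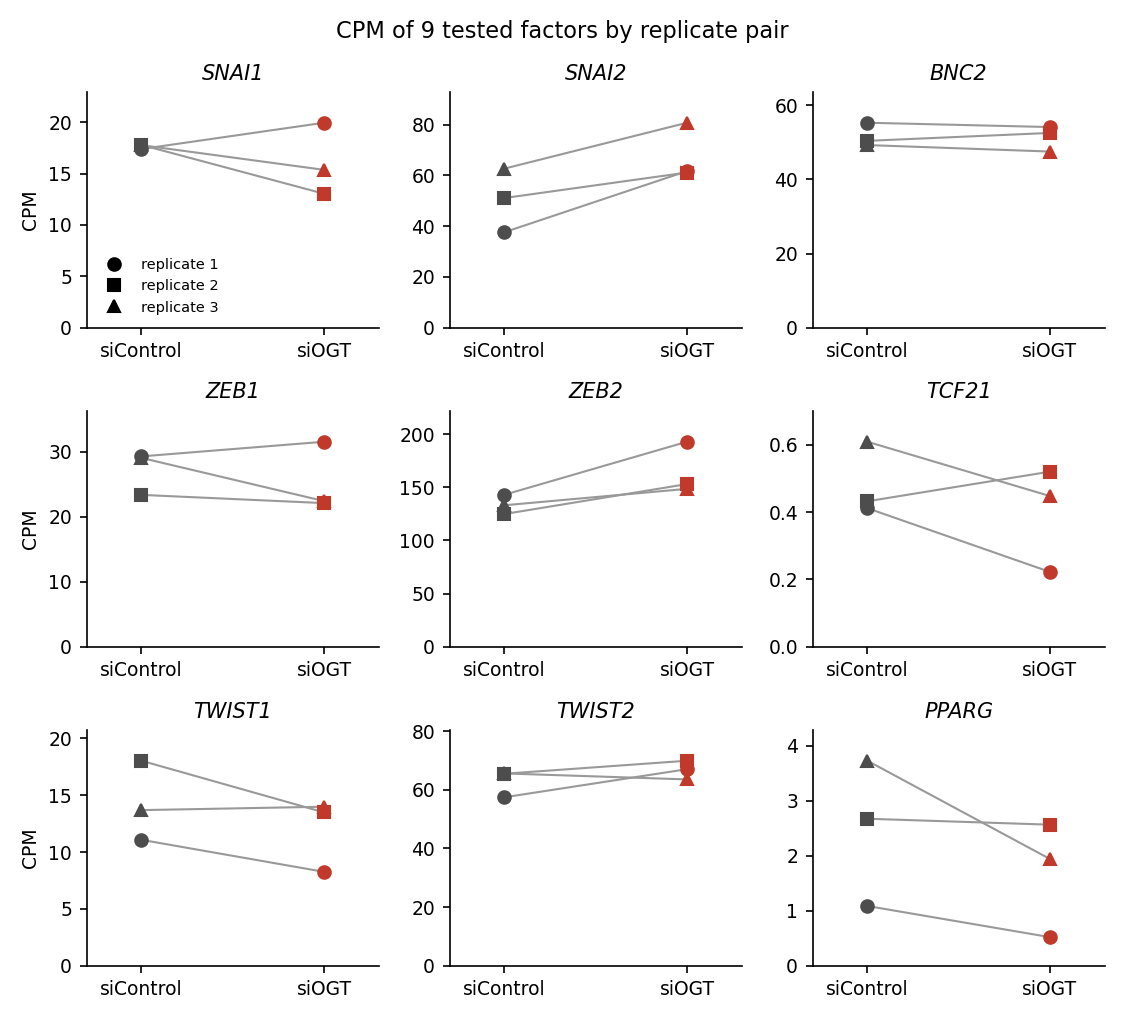
CPM of the 9 tested factors in each replicate pair, each panel with its own axis from 0, siControl in grey and siOGT in red. The lines of SNAI2 and ZEB2 rise in all 3 pairs, those of PPARG fall in all 3, and those of BNC2 are nearly level at about 47.5 to 55.3 CPM.

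**Figure D4:**
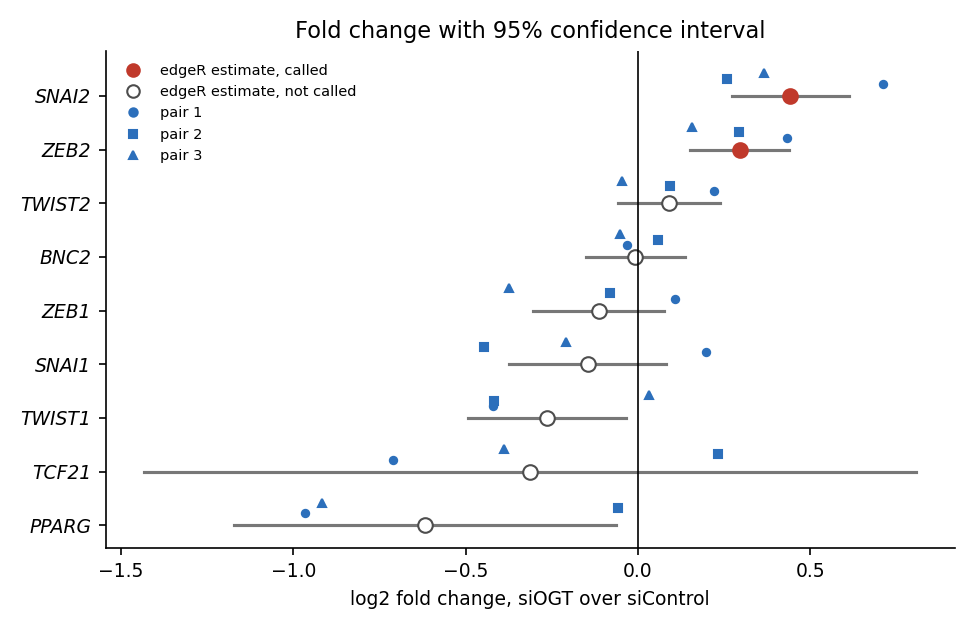
Log2 fold change of siOGT over siControl for the 9 tested factors with its 95% confidence interval (bars) and the log2 ratio of each pair (blue symbols). The filled points, SNAI2 at 0.44 and ZEB2 at 0.30, passed the edgeR test, and the open points did not.

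The replicate number, with 2 degrees of freedom against 1 for the group, accounted for more of the spread of log2 CPM than the group did in 8 of the 9 tested factors. Its share of the sum of squares was 89.7% for BNC2, 81.6% for PPARG, 75.3% for TWIST1 and 69.3% for ZEB1, in which the group held 0.250%, 13.0%, 15.2% and 7.84%. For SNAI2 the shares were 47.6% for the replicate and 44.1% for the group. ZEB2 was the exception, with 55.5% for the group and 36.5% for the replicate. In OGT the group held 95.5%. No factor, ZEB2 included, was called without the block, by edgeR, which called 0.875% of all genes in that fit, or by DESeq2. In the edgeR fit without the block, SNAI2 and ZEB2 had unadjusted p-values of 0.04 and 0.0263. With the block, DESeq2 called SNAI2 and ZEB2 as well, and 19.2% of the 12549 genes it tested.

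In the RefSeq table of start sites, 7 of the 10 factors were found, and the 250 bases before the MANE start were searched for the E-box CACCTG on both strands (CAGGTG), which SNAI and ZEB proteins bind. ZEB1 held 2 matches, 242 and 85 bases before the start, and BNC2 held 1, whereas the windows of ZEB2, TWIST2, PPARG, PRRX1 and TCF21 held none. Of all 35116 windows, 17.5% held a match. In GENCODE 44 all 250 bases of the ZEB1, ZEB2 and PRRX1 windows, 232 of PPARG, 173 of BNC2, 53 of TWIST2 and 0 of TCF21 lie in exons of coding genes, so that both ZEB1 matches are exonic. The number of CpG dinucleotides in the window was 36 for BNC2, 26 for TWIST2, 14 for ZEB1, 12 for ZEB2, 9 for PPARG, 6 for PRRX1 and 5 for TCF21, beside a median of 11 over all windows. PRRX1 and TCF21, both under 1 CPM, had the fewest CpG of these 7 windows. A relation between CpG number and level was not tested.

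Next, genes around the factors were read from 7 lists, which were chosen with earlier results of these data known. The share called in each stands beside 25.4% of all genes tested. Among 46 family members and other mesenchymal or stellate transcription factors, 40 were tested, 8 rose and 8 fell (40% called; median log2 fold change -0.02). GATA6, a zinc finger factor of mesoderm and endoderm, rose from 8.09 to 11.5 CPM (log2 fold change 0.55, edgeR adjusted p = 0.00333), and TBX2, a T-box repressor, from 35.2 to 48.6 CPM (0.46). WT1, a factor of mesothelium and of the progenitors of HSCs, fell from 9.35, 9.47 and 11.3 CPM to 7.89, 6.09 and 6.34 CPM (-0.57, edgeR adjusted p = 0.00348), and LHX9, a LIM homeobox factor, from 15.9 to 11.2 CPM (-0.50). The siControl and siOGT libraries overlapped for GATA6, TBX2 and LHX9, and did not overlap for WT1. GATA6 lost its call without replicate 1. Without the replicate block, edgeR called 1 gene of the 7 lists, LTBP3 of the TGF-beta pathway (edgeR adjusted p = 0.0464), and DESeq2 called 10, WT1 among them.

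Among 29 dimer partners and corepressors, 28 were tested, 1 rose and 5 fell (21.4% called; median -0.11). TCF4, an E protein that pairs with TWIST factors, was at 17.2, 27.1 and 23.0 CPM in siControl and 11.8, 22.1 and 16.0 CPM in siOGT and fell by 0.45 on the log2 scale (edgeR adjusted p = 0.00129). The other E proteins TCF3 and TCF12 were not called, with log2 fold changes of -0.07 and -0.09. LIMD1, a LIM protein that binds the SNAG repression domain of SNAI factors, fell from 87.2 to 65.7 CPM, without overlap of the groups (-0.41, edgeR adjusted p = 0.000200). The 16 genes of protein turnover and phosphorylation of SNAI, ZEB and TWIST were all tested, with 1 rise and 2 falls (18.8% called; median -0.03). FBXO45, the substrate receptor of a ubiquitin ligase, rose by 0.27, a call that was lost with DESeq2 or without replicate 3. GSK3B and PAK1, kinases that phosphorylate SNAI1, fell by 0.26 and 0.19 on the log2 scale, and each lost its call without replicate 1, PAK1 also without replicate 2 or with library totals alone.

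The 24 genes of the TGF-beta pathway, an inducer of SNAI, ZEB and TWIST genes, were all tested, with 4 rises and 6 falls (41.7% called; median log2 fold change -0.001). The inhibitors PMEPA1 and SMAD7 rose by 0.77 and 0.50, from 1.75 to 2.98 and from 6.35 to 9.08 CPM, and both lost their call with DESeq2 or without replicate 1, SMAD7 also without replicate 3. LTBP3 and LTBP4, which hold latent TGF-beta in the matrix, fell by 0.80 and 0.46 on the log2 scale (edgeR adjusted p = 8.628e-07 and 9.414e-05), and neither gene's groups overlapped. The ligand TGFB1 and the receptor TGFBR1 were also called lower (-0.25 and -0.30).

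Of 30 epithelial genes that SNAI and ZEB factors repress, 21 were tested and 10 had a mean of at least 1 CPM. Of the 21 tested genes, 1 rose and 3 fell (19.0% called, median -0.10). CDH1 (E-cadherin), the best known target, was at most at 0.179 CPM in any library, and EPCAM was not tested for lack of counts, so a lower level in siOGT could not be seen. CLDN1, a tight junction protein, rose from 0.929 to 1.68 CPM (0.86, edgeR adjusted p = 0.0394), a call that was lost with DESeq2 or without replicate 1 or 2. MUC1, a membrane mucin, PKP3, a desmosomal plakophilin, and KRT8, a keratin, fell by 0.43, 0.39 and 0.35 on the log2 scale. PKP3 lost its call with DESeq2 or without replicate 1 or 3.

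Of 23 mesenchymal genes, 22 were tested, 4 rose and 5 fell (40.9% called; median -0.04). The intermediate filament gene VIM (log2 fold change -0.06) and the N-cadherin gene CDH2 (0.01) were not called. SPARC, a collagen-binding matrix protein, rose by 0.44 (edgeR adjusted p = 0.000367) and TAGLN, an actin-binding protein, by 0.37. POSTN (periostin) fell by 1.03 and THY1, a surface marker of fibroblasts, by 0.41 on the log2 scale. Without the replicate block edgeR called none of SPARC, THY1, POSTN and TAGLN (adjusted p = 0.16, 0.25, 0.37 and 0.68). Of 23 PPARG targets and adipogenic genes, 17 were tested, 10 had a mean of at least 1 CPM, 4 rose and 1 fell (29.4% called; median 0.22). KLF15 and CEBPB, which act in adipogenesis, rose by 1.10 and 0.48, to 8.30 and 190 CPM, and LIPE, the hormone-sensitive lipase, fell by 0.69 on the log2 scale (edgeR adjusted p = 7.523e-06). The lipid uptake gene CD36 was at 0.426 and 0.917 CPM and was not called (1.11, edgeR adjusted p = 0.0682).

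**Figure D5:**
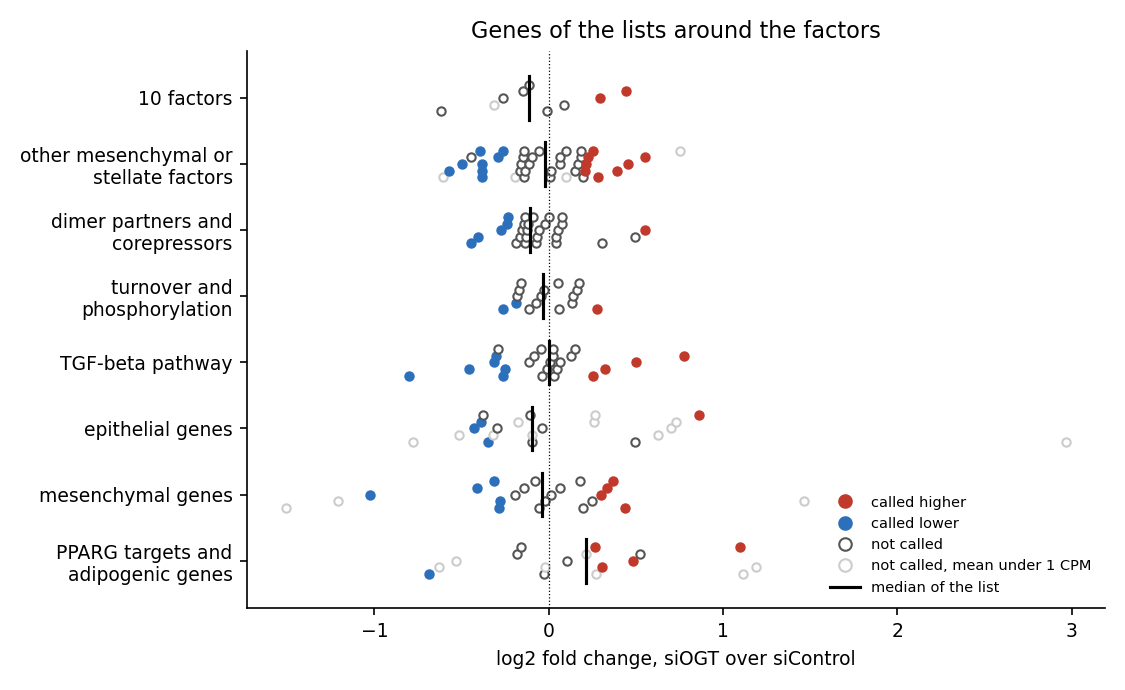
Log2 fold change of siOGT over siControl for each tested gene of the 10 factors and of the 7 lists, with called genes filled (red higher, blue lower), genes with a mean under 1 CPM in pale grey and a bar at the median of each list. Called genes lie on both sides of 0 in each of the 7 lists, and the medians lie between -0.11 and 0.22.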

How the data were processed

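RNA of LX-2 cells was sequenced in 3 siControl and 3 siOGT libraries, with groups and numbers from the labels. The authors selected RNA with oligo-dT, prepared stranded libraries, aligned paired reads to hg38 with Bowtie2 2.3.5.1 and deposited RSEM 1.3.1 expected counts per gene, in which a read that fits several genes is divided between them. The methods name a GENCODE annotation for GRCh38, and gene models, lengths and coordinates given here are from GENCODE 44. The authors' own comparison (mean count, fold change and p-values per gene) was not used.

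Expected counts were rounded. Genes with a total under 10 were removed, which left 14853 of 16907. The main test was the quasi-likelihood F test (two-sided) in edgeR 4.0.16 (R 4.3.3), with TMM scaling, the replicate number as a block and Benjamini-Hochberg adjustment over all genes tested. A gene was called, and is said to have risen or fallen, at an adjusted p of at most 0.05. CPM use the library total and TMM factor, and ratios within pairs a prior count of 2. Means are over 3 libraries per group. The pairing comes from the study's methods: same-numbered libraries were compared, and their deviations from the group means correlated by 0.69, 0.53 and 0.33 over 12373 genes (all other combinations at most 0.054). No libraries of a group agreed within sampling noise. The test was tried on simulated data.

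Members and gene lists were chosen with earlier results of these data known. Besides the 10 factors and OGT, the 2 highest and 2 lowest log2 fold changes of each list were named, among called genes that averaged 1 CPM or more and kept their sign in every pair. Other genes (BNC1, TCF3, TCF12, TGFB1, TGFBR1, CDH1, EPCAM, KRT8, VIM, CDH2, CD36) were added once their values had been seen. Alternatives were DESeq2 1.42.0, fits without the block, other scalings and filters, and leaving out each pair. The p-values with a pair left out rest mostly on variance pooled over genes, little on a gene's own spread. The prior degrees of freedom, the weight of that pooled variance, were 24.2, infinite and 14.0 without replicates 1, 2 and 3.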

Additional observations from a re-analysis of the deposited data

How the results depend on the processing

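The fold changes of SNAI2, ZEB2 and OGT kept their direction in all 10 other settings. Without the replicate block, edgeR called 0 factors (0 higher), 1 list gene and 130 genes, and DESeq2 without a block, an alternative chosen after seeing the data, called 0 factors (0 higher), 10 list genes and 849 genes, beside 2 factors, 53 list genes and 3766 genes with the block. DESeq2 with the block called 2 factors and 2415 genes. When each pair was left out in turn, factors called ranged from 1 to 3, factors called higher from 1 to 2, factors called lower from 0 to 1, list genes from 23 to 54 and all genes from 1803 to 3439, the lowest counts of list genes and of all genes being those without replicate 1. The sign turned for BNC2 with library totals alone (0.015) and without replicate 1 (0.0024) or 3 (0.0080), its range over left-out pairs being -0.044 to 0.0080, and for ZEB1 without replicate 3 (0.012), its range being -0.23 to 0.012. The cause was not tested. The other scalings and filters changed no call of a factor, and a prior count of 0.5 left the paralog ratios within 0.002. Counts were low for TCF21, PRRX1 and most epithelial genes. PPARG was low as well, with a counting error of 9.81% to 26.7% of the value in a library. The replicate number held 81.6% of its sum of squares.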

Other observations

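The share of markers called below stands beside 25.4% of all genes tested. Of the HSC and myofibroblast markers, 10 were tested, 1 rose and 4 fell (50% called, median log2 fold change -0.32). The 5 that were not called were ACTA2, DES, RGS5, NGFR and LUM. The 4 that fell were COL1A1 (-0.39), COL1A2 (-0.32), COL3A1 (-0.64) and PDGFRB (-0.32). RELN (reelin) rose from 12.5 to 21.3 CPM (log2 fold change 0.78, edgeR adjusted p = 7.794e-05). Of the 3 hepatocyte markers tested, 1 was called, with log2 fold changes from -0.25 to 0.74 (median -0.22). This was CYP2E1, a hepatocyte cytochrome, which rose from 4.08 to 6.88 CPM (0.74, edgeR adjusted p = 0.00104). ALB, APOA1 and HNF4A were under 1 CPM. Of the 4 macrophage and leukocyte markers tested, 1 was called, with log2 fold changes from -0.53 to 0.46 (median -0.17). This was CD68, a lysosomal protein of macrophages and other cells, which rose from 137 to 188 CPM (0.46, edgeR adjusted p = 0.000947). Of the 3 endothelial markers tested, 1 was called, with log2 fold changes from -0.93 to 0.055 (median -0.12). This was VWF, which fell from 2.60 to 1.35 CPM (-0.93, edgeR adjusted p = 0.0108). The named genes were picked with their values in view.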
